A study of Mus musculus with 4 samples.

Results

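The assembly factors of the large (60S) ribosomal subunit are proteins that build the subunit in the nucleolus and escort it to the cytoplasm without staying in the finished ribosome. The set held 44 genes, known as 60S assembly and export factors, and took all probe sets that carry 1 of their symbols and no other. Of the 44 genes, 43 had such a probe set, with 94 probe sets in all, out of 18193 genes and 34945 probe sets with 1 symbol on the array. Mrto4, which encodes a placeholder for a ribosomal stalk protein, had 1 probe set, annotated also to its pseudogenes, and was not analysed here. The set was proposed with the results of the comparison below already known, so its differences, standard errors and calls are a description of these arrays and no independent evidence.

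The samples were HL-1 cells, an immortalised line of mouse atrial muscle cells that comes from an atrial tumour driven by a viral T antigen and beats in culture. With 1 Affymetrix array of total RNA per sample, 2 samples paced electrically for 24 h at 300 beats per minute, a rate given as roughly 1.5 to 2 times that of control cells, were set against 2 samples that beat spontaneously without pacing. All samples were grown to confluence in supplemented Claycomb medium on gelatin and fibronectin, and since no cells were paced at the control rate, pacing and rate cannot be told apart. The stimulated samples are labelled as experiments 1 and 2, while the titles of the control samples carry no number. Nothing further is said about separate cultures, so standard errors and p-values rest on the spread between these 4 arrays, part of which may be technical.

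Ribosome assembly starts when RNA polymerase I transcribes a long precursor of the ribosomal RNAs, which is folded, chemically modified and cut while ribosomal proteins join. Assembly factors bind the 60S precursor in turn: scaffold proteins and helicases early, GTPases and large ATPases as the particle is remodelled, and an export adapter before it leaves the nucleus. Muscle cells make more ribosomes when they enlarge, and many ribosome biogenesis genes are known targets of the growth regulator MYC.

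Levels are log2 values made by RMA, which removes background, gives all arrays 1 distribution of values and combines the probes of a set. Each gene is represented by its brightest probe set, and genes with a mean over the 4 arrays of at least 4.39, the 40th percentile of all probe sets, were tested with limma, which left 13058 genes. A gene is called where its Benjamini-Hochberg adjusted p over all these genes is under 0.05. Differences are stimulated minus control in log2 units, and ± marks the standard error that limma fitted. Levels of different probe sets are not comparable, so only differences are set side by side. All 43 genes passed the level filter, and in 0 of them was the control mean below it, so no gene was tested only because it was high after pacing.

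Transcripts of the large subunit assembly factors were higher in paced cells almost throughout. The difference was above 0 for 42 of 43 genes, with a median of 0.67 against -0.01 over all genes tested. In 38 of the 43 genes both stimulated arrays lay above both control arrays, which 27.6% of all genes tested did, and in 1 gene both lay below, as in 27.7%. By limma 20 of the 43 genes were called higher, against 3.91% of all genes tested, and 0 were called lower, against 1.62%. An unadjusted p under 0.05 was found for 35 of the genes, all of them higher, and for 25.6% of all genes tested. The adjusted p of the 20 called genes lay between 0.0166 and 0.0449. A difference of 1 or more, which is at least a doubling, was found for 6 genes (Gtpbp4, Rrp15, Nle1, Nmd3, Ppan and Gnl3), against 2.23% of all genes.

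The calls depended on having all 4 arrays, while the median difference moved little. Without stimulated 1 only Gtpbp4 and Rrp15 were called, without stimulated 2 only Gtpbp4, and without control 1 or control 2 the count was 0, with 27 and 29 genes at an unadjusted p under 0.05 (17.0% and 15.4% of all genes tested). Calls were lost among all genes tested as well, of which 0.536% and 0.551% were called higher without stimulated 1 and stimulated 2, and 0.207% and 0.146% without control 1 and control 2. The median difference of the assembly factors lay between 0.65 and 0.74 in these 4 fits. Averaging all probe sets of a gene gave 15 called genes (3.94% of all genes), and centring the arrays on the median of the genes tested, a setting added after the data were seen, gave 19 (3.61%), with a median of 0.61. That centring also lowered the share of rises among all calls, 70.6% as deposited, to 55.3%.

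The paced arrays were not identical in these genes. With each gene centred on its mean over the 4 arrays, the median of the 43 genes was 0.40 on stimulated 1 and 0.26 on stimulated 2, against -0.36 on control 1 and -0.30 on control 2. Stimulated 1 read higher than stimulated 2 for 31 of the 43 genes. Gtpbp4, Rrp15, Nle1, Brix1 and Surf6 were among those that went the other way, as the plot of levels by array shows. The median absolute difference between the arrays of a group was 0.18 for the stimulated and 0.13 for the control arrays. In bulk RNA, a change in the share of cells that express a gene and a change per cell cannot be told apart.

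**Figure D1:**
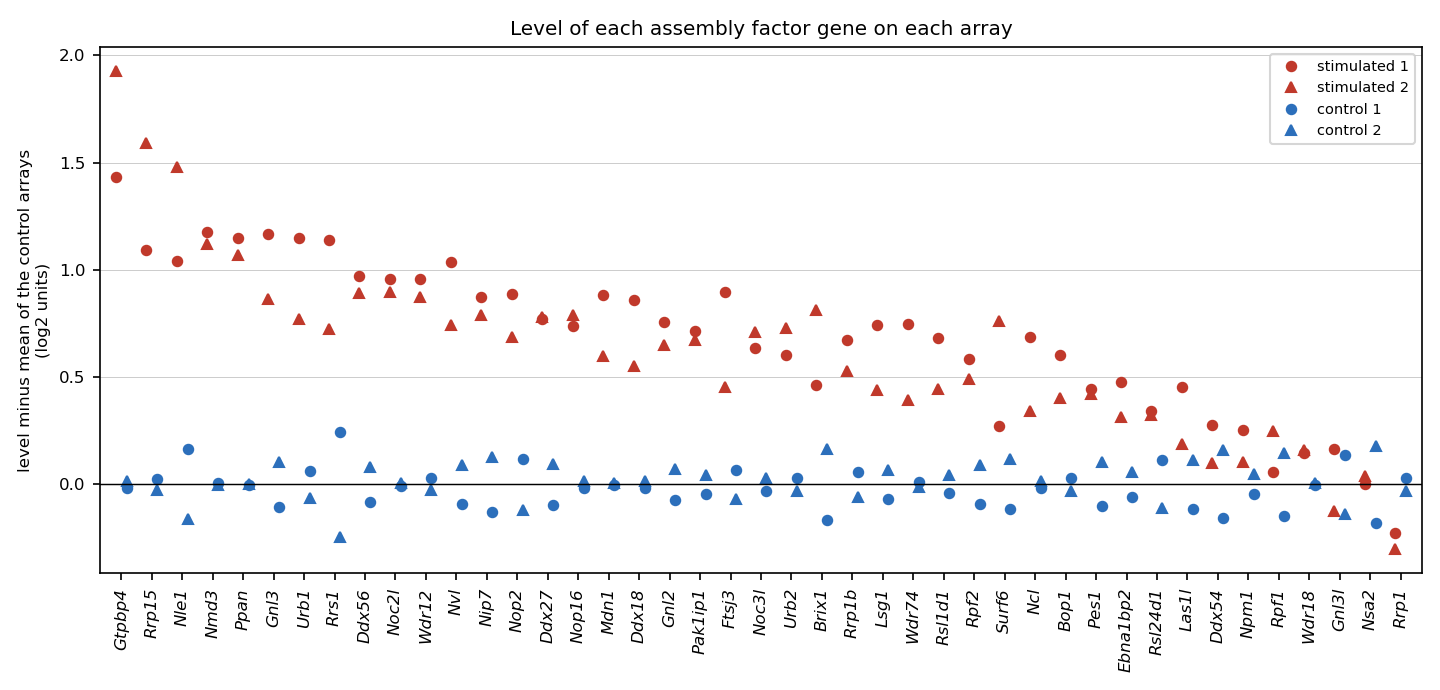
Level of each of the 43 assembly factor genes on each array, as log2 level minus the mean of the 2 control arrays, with genes ordered by their difference, where red symbols are the stimulated and blue symbols the control arrays, and circles and triangles mark replicates 1 and 2. The red symbols lie above both blue ones for 38 genes, and the gene at the far right, Rrp1, has both red symbols below.

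Promoters are shown for 5 called genes because each holds 1 or both of 2 short motifs searched for and the genes were higher together. Of these, 4 are among the 5 largest differences. Gtpbp4, the largest difference, held neither motif and is not shown. The sequences are those of RefSeq on GRCm38.p6, 250 bases before and 50 after the annotated start, each read 5′ to 3′ on the strand of its gene. Capitals mark CACGTG, the E-box that MYC with its partner MAX can bind, and CCGGAAG or its reverse complement CTTCCGG, a core that ETS family factors can bind. The second motif was chosen after the data had been seen.
Rrp15 (chr1:186749309-186749608, minus strand): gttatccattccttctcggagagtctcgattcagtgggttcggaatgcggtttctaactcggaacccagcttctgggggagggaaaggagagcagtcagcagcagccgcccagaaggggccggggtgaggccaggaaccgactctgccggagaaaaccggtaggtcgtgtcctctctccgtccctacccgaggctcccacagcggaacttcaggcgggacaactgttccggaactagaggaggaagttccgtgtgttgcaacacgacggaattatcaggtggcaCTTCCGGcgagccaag
Nle1 (chr11:82908346-82908645, minus strand): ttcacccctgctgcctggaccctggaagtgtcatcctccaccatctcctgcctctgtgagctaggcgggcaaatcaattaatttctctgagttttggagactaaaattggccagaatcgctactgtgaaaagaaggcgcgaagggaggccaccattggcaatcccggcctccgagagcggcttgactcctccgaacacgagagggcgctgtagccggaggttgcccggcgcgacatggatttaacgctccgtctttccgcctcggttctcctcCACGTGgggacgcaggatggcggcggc
Nmd3 (chr3:69721805-69722104, plus strand): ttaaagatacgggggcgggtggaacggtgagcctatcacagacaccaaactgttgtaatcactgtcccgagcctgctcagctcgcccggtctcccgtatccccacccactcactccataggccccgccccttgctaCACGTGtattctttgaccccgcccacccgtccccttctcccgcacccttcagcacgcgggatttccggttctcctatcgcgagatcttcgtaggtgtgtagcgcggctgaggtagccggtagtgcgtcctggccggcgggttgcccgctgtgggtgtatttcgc
Ppan (chr9:20887925-20888224, plus strand): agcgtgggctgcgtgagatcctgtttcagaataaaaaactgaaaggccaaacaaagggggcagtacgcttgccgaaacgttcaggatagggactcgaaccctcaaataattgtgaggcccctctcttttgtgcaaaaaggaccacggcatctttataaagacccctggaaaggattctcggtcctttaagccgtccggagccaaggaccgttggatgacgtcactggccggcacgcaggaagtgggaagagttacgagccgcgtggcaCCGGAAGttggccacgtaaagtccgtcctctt
Nop2 (chr6:125131633-125131932, plus strand): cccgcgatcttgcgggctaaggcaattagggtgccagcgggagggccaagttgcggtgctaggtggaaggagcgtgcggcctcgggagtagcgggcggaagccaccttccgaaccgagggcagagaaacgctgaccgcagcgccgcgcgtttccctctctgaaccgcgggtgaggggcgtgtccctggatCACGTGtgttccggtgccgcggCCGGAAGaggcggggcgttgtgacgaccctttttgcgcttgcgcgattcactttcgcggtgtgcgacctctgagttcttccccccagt

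Of the 43 genes, 36 had a promoter in the table, and no entry was found for Bop1, Rrs1, Pak1ip1, Npm1, Gnl3l, Gnl2 and Rpf1. CCGGAAG stood on either strand in 20 of the 36 promoters, which is 55.6%, against 18.7% of the 10546 genes tested that had a promoter. It was as frequent in the called genes, 10 of 18, as in those not called, 10 of 18. In 18 of the 20 genes a match began within 50 bases of an annotated start. CACGTG, which reads the same on both strands, stood in 6 of the 36 promoters (16.7%), those of Nle1, Nmd3, Nop2, Mdn1, Pes1 and Rpf2, against 11.3% of the genes tested. These were 4 of 18 called genes and 2 of 18 not called. Nop2 and Rpf2 held both motifs, and 12 of the 36 genes held neither, among them the called genes Gtpbp4, Gnl3, Wdr12, Ddx56 and Nop16. The motifs cannot overlap each other. CCGGAAG also stood in 19 of 44 promoters of small subunit assembly factors, 7 of 12 of RNA polymerase I and its factors, 10 of 20 of large subunit ribosomal proteins and 0 of 10 of the export list. CACGTG stood in 13 of 44, 1 of 12, 3 of 20 and 2 of 10 promoters of the same lists. In the other large subunit factors, the snoRNP list and the exosome list, CCGGAAG stood in 8 of 23, 4 of 12 and 5 of 14 promoters. CACGTG stood there in 4 of 23, 0 of 12 and 2 of 14. A match is a string of letters and was not tested as a binding site.

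**Figure D2:**
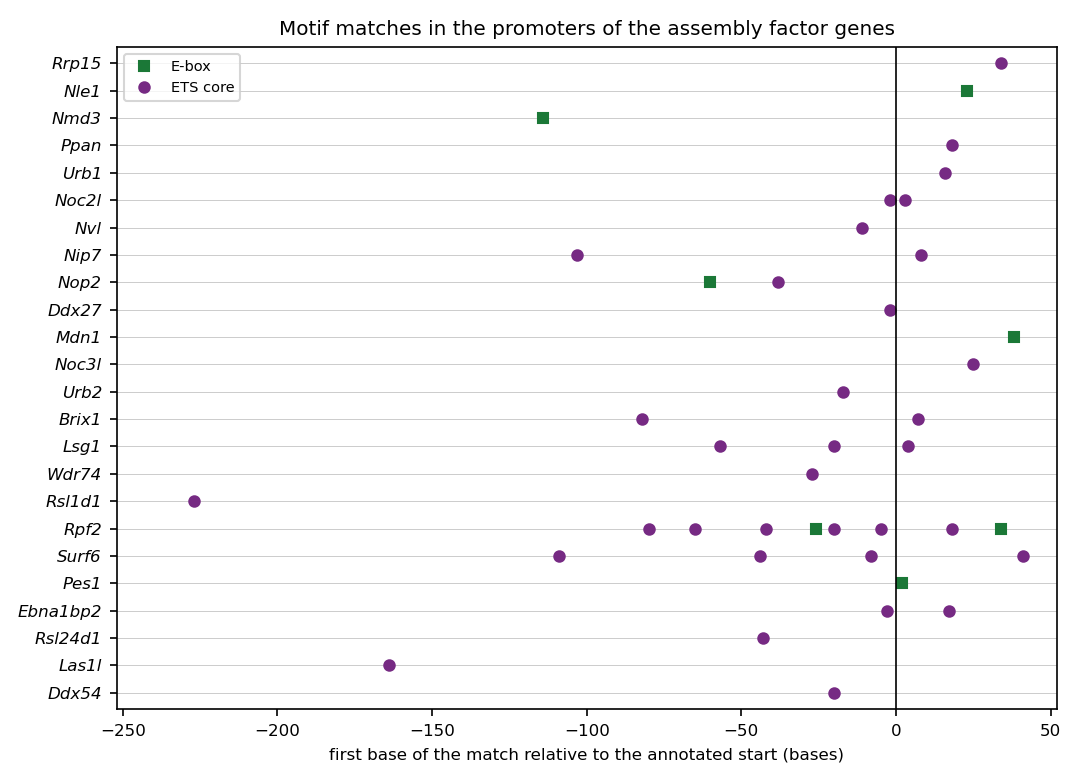
Motif matches in the promoters of the 24 assembly factor genes that held one, with the first base of each match relative to the annotated start on the horizontal axis, in bases, where squares are E-boxes and circles ETS cores, on either strand, and genes run from the largest difference at the top. Matches crowd around the start, and those of Rpf2 and the single match of Noc2l appear once for each of 2 annotated starts.

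The GTPases, of which 3 of 5 were called higher, include the largest difference of the set. Gtpbp4, a GTPase that joins the particle in the nucleolus, read 9.68 and 10.18 on the stimulated arrays, against 8.23 and 8.26 on the control arrays. Both stimulated arrays stood far above both controls, by a mean of 1.68 ± 0.19 or 3.20-fold. Its other probe sets, at 1.36 and 1.90, went the same way. Gnl3, also known as nucleostemin, read 10.41 and 10.10 on the stimulated arrays, against 9.13 and 9.35 on the control arrays, a difference of 1.02 ± 0.16 with no overlap. Its close paralog Gnl3l read 9.03 and 8.74 on the stimulated arrays, against 9.002 and 8.73 on the control arrays. The Gnl3l arrays overlapped fully, and its difference of 0.02 had a 95% interval of -0.38 to 0.43. Gnl2, a nucleolar GTPase of the same family, was called with 0.70 ± 0.13, and its other probe sets read 0.65 and 0.98. Lsg1, the cytoplasmic GTPase that releases the export adapter from the new subunit, differed by 0.59 ± 0.15 and was not called.

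Nmd3, the adapter that links the 60S particle to the exportin CRM1, read 9.88 and 9.82 on the stimulated arrays, against 8.71 and 8.70 on the control arrays. The arrays within each group were nearly equal and the groups stood apart by 1.15 ± 0.12 or 2.22-fold. Its second probe set past the filter gave 1.14. The probe sets of Nmd3 and the other genes that lay below the filter, 12 in all, differed by -0.28 to 0.31, and such dim probe sets carry little signal.

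Large ATPases strip factors from the maturing particle, and 3 of 6 genes for them and their partners were called higher. Nle1, the partner on which the ATPase midasin pulls, read 8.04 and 8.48 on the stimulated arrays, against 7.16 and 6.84 on the control arrays. Its replicates were spread in both groups, yet the groups did not overlap, and the difference was 1.26 ± 0.20. Midasin itself, Mdn1, was called with 0.74 ± 0.14. Nvl, a second nucleolar ATPase, read 8.12 and 7.83 on the stimulated arrays, against 6.997 and 7.18 on the control arrays, with a difference of 0.89 ± 0.15. A second Nvl probe set gave 0.78, while another, much dimmer one gave -0.12. Wdr74, a partner of Nvl, differed by 0.57 ± 0.16 and was not called. Las1l, an endonuclease that cuts the spacer between the large subunit RNAs, and its partner Wdr18 differed least in this group. Wdr18 read 8.63 and 8.64 on the stimulated arrays, against 8.48 and 8.48 on the control arrays. That is a narrow separation of 0.15 ± 0.12 (95% interval -0.14 to 0.44), and its other probe sets gave -0.03 and 0.08. Las1l differed by 0.32 ± 0.16. Further members of that complex, Pelp1 and Senp3, named after their values were seen, differed by 0.09 ± 0.13 and 0.15 ± 0.14, and Tex10 by 0.71 ± 0.20. None of the 5 was called.

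Among the enzymes, helicases and scaffold proteins, 8 of 17 genes were called higher, with a median of 0.67. Rrp15, an early nucleolar factor, read 9.74 and 10.24 on the stimulated arrays, against 8.67 and 8.62 on the control arrays. The stimulated arrays differed from each other by more than the controls did, but both lay above, by 1.34 ± 0.19 or 2.53-fold. Nop2, which methylates a cytosine of the large ribosomal RNA, read 10.07 and 9.86 on the stimulated arrays, against 9.30 and 9.06 on the control arrays, a difference of 0.79 ± 0.15 with no overlap. Noc2l, whose yeast counterpart pairs with that of Noc3l, read 7.84 and 7.77 on the stimulated arrays, against 6.87 and 6.89 on the control arrays. This was a tight separation of 0.93 ± 0.12, but its dimmer probe set gave 0.23. Noc3l differed by 0.67 ± 0.12 and was called. Urb1, a large scaffold protein, read 8.01 and 7.63 on the stimulated arrays, against 6.92 and 6.80 on the control arrays, a difference of 0.96 ± 0.16. The other Urb1 probe set gave -0.04, so the probe sets of this gene disagreed. Urb2 had 1 probe set and was called with 0.66 ± 0.12.

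RNA helicases of the DEAD-box family unwind RNA in the particle. Ddx56 read 8.69 and 8.61 on the stimulated arrays, against 7.64 and 7.80 on the control arrays, a difference of 0.93 ± 0.13. Ddx27 read 8.86 and 8.87 on the stimulated arrays, against 7.996 and 8.19 on the control arrays, a difference of 0.78 ± 0.13, with 0.13 on its dimmer probe set. Both were called, and neither had overlapping groups. Ddx18 read 9.98 and 9.67 on the stimulated arrays, against 9.10 and 9.13 on the control arrays. Its groups did not overlap at 0.71 ± 0.15, but its adjusted p of 0.0515 fell just outside the threshold, and its other probe sets gave 0.54 and 1.27. The last of these read 6.08 and 7.41 on the stimulated arrays, against 5.57 and 5.38 on the control arrays, so the stimulated arrays were far apart. Ddx54 differed by 0.19 ± 0.16 and its groups overlapped.

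Nucleolin and nucleophosmin, known as abundant nucleolar proteins, differed less. Ncl, nucleolin, which binds the ribosomal RNA precursor, read 12.50 and 12.15 on the stimulated arrays, against 11.80 and 11.83 on the control arrays. Its difference was 0.51 ± 0.16, and its 4 other probe sets gave 0.20 to 0.55. Npm1, nucleophosmin, a histone chaperone that forms the outer layer of the nucleolus, read 12.38 and 12.23 on the stimulated arrays, against 12.08 and 12.18 on the control arrays. The 0.18 ± 0.13 of Npm1 was of the size of the spread between arrays, and its second probe set gave 0.34. The groups did not overlap on either Npm1 probe set. Neither gene was called. Ftsj3, an RNA methyltransferase, Surf6 and Ebna1bp2 differed by 0.67 ± 0.18, 0.52 ± 0.20 and 0.40 ± 0.13 without being called.

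Rrp1 was the single gene of the set with a lower level in paced cells. It read 10.01 and 9.93 on the stimulated arrays, against 10.27 and 10.21 on the control arrays, a difference of -0.26 ± 0.12. Both stimulated arrays lay below both controls on this probe set and on the second one, where it read 9.20 and 9.29 on the stimulated arrays, against 9.81 and 9.85 on the control arrays (-0.59), but neither was called. Its paralog Rrp1b read 8.94 and 8.79 on the stimulated arrays, against 8.32 and 8.21 on the control arrays. That was 0.60 ± 0.13 higher without overlap, with 0.77 and 0.95 on its other probe sets, and also not called. The paralogs, which are relatives of 1 yeast factor, thus had opposite signs over their 5 probe sets.

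The PeBoW complex joins Pes1, Bop1 and Wdr12 and is needed to process the large subunit RNAs. Wdr12 read 9.41 and 9.32 on the stimulated arrays, against 8.47 and 8.42 on the control arrays, a difference of 0.92 ± 0.12. Its dimmer probe set gave 0.54. Bop1 and Pes1 differed by 0.50 ± 0.13 and 0.43 ± 0.13. The groups did not overlap for any of the 3 genes, but only Wdr12 was called.

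Brix-domain proteins bind RNA in the particle, and Rpf2 with Rrs1 brings in the 5S RNA. Of these 5 genes only Ppan was called. It read 9.27 and 9.19 on the stimulated arrays, against 8.12 and 8.12 on the control arrays, a tight separation of 1.11 ± 0.12 or 2.16-fold. Rrs1 read 9.94 and 9.53 on the stimulated arrays, against 9.05 and 8.56 on the control arrays. Its 0.93 ± 0.22, with 1.05 on a second probe set, was among the larger differences, but its standard error was the largest of the set and it was not called. Rpf2 read 7.75 and 7.66 on the stimulated arrays, against 7.08 and 7.26 on the control arrays, a difference of 0.54 ± 0.13 that was not called. The other Rpf2 probe sets gave 0.45 and -0.06 and thus disagreed. Brix1 differed by 0.64 ± 0.18 and was not called. Rpf1 read 8.73 and 8.92 on the stimulated arrays, against 8.52 and 8.82 on the control arrays. The Rpf1 groups overlapped, with 0.15 ± 0.16 (95% interval -0.23 to 0.54).

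Of the placeholders and other factors of the 60S precursor, 3 of 6 were called higher. Nip7, a small RNA-binding factor, read 9.30 and 9.22 on the stimulated arrays, against 8.30 and 8.56 on the control arrays, a difference of 0.83 ± 0.14, with 0.26 on its dimmer probe set. Nop16 read 9.31 and 9.36 on the stimulated arrays, against 8.56 and 8.59 on the control arrays, a difference of 0.76 ± 0.12. The groups were apart for both. Pak1ip1 was called with 0.69 ± 0.12 and 0.67 on its second probe set. Rsl1d1 differed by 0.56 ± 0.14, and Rsl24d1, a placeholder for the ribosomal protein eL24, by 0.33 ± 0.13, and neither was called. Nsa2 read 10.55 and 10.59 on the stimulated arrays, against 10.37 and 10.73 on the control arrays. The groups overlapped at 0.02 ± 0.16 (95% interval -0.37 to 0.40), while a dimmer probe set read 7.49 and 7.63 on the stimulated arrays, against 6.80 and 6.97 on the control arrays, which is 0.68 without overlap. The value of Nsa2 thus depends on the probe set.

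**Figure D3:**
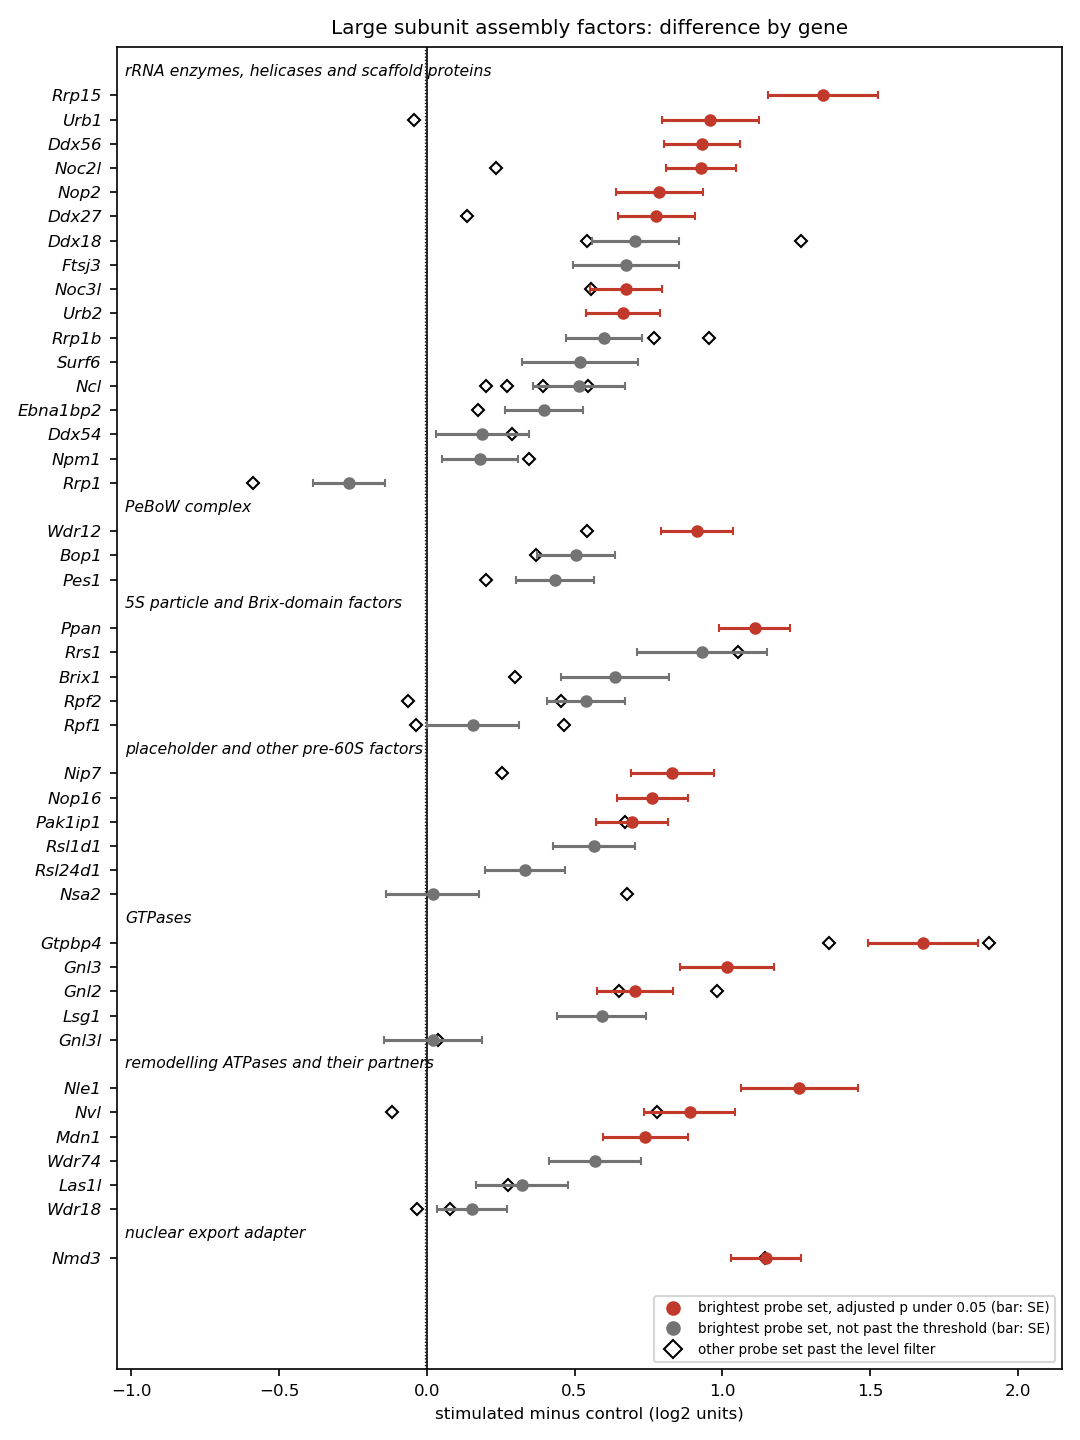
Difference between stimulated and control arrays, in log2 units (stimulated minus control), for the 43 genes grouped by role, where filled circles are the brightest probe set with its standard error, red where called, and open diamonds are the gene's other probe sets past the level filter. All but 1 of the circles lie right of 0, and diamonds of Urb1, Nvl, Noc2l and Nsa2, among others, lie far from their circles.

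Probe sets of 1 gene mostly went the same way. Of the 82 probe sets past the filter, 75 were above 0 and 65 had both stimulated arrays above both controls. Among all genes tested, each at its brightest probe set, 27.6% had such a separation, and no share over single probe sets was taken. Of the 7 below 0, 2 belonged to Rrp1 and the other 5 lay between -0.12 and -0.03. The median of the 82 was 0.55, lower than that of the brightest probe sets. Fitted as 23284 single probe sets, 27 of the 82 were called higher, against 2.99% of all probe sets, and 0 lower, against 1.86%. In 9 genes the probe sets past the filter differed by over 0.5 from each other (Ddx18, Ddx27, Gtpbp4, Nip7, Noc2l, Nsa2, Nvl, Rpf2 and Urb1). The array has 8 member probe sets whose names end in x, which may cross-hybridise, among them the ones used for Nmd3 and Ddx54.

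Other steps of ribosome biogenesis were followed in lists written with earlier results of these data known. The other large subunit factors had 5 of 29 genes called higher and 0 lower, against 3.91% and 1.62% of all genes tested, with a median of 0.41. They included Tma16 (1.32 ± 0.14), Spata5, an ATPase that recycles factors in the cytoplasm (1.29 ± 0.14), and Zfp593 (1.27 ± 0.13). Small subunit assembly factors had 17 of 54 genes called higher and 0 lower, with a median of 0.49. Rrp12 read 7.90 and 7.78 on the stimulated arrays, against 5.90 and 6.21 on the control arrays, a difference of 1.79 ± 0.15. Utp4 and Tsr1, which act early and late on the small subunit, rose by 1.34 ± 0.12 and 1.34 ± 0.16. In the list of snoRNP proteins, which carry the guide RNAs for modification of ribosomal RNA, 6 of 16 genes were called higher and 0 lower, with a median of 0.43. Its smallest p were those of Znhit6 (1.06 ± 0.15), Naf1 (0.79 ± 0.13) and Nop56 (0.74 ± 0.12).

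RNA polymerase I and its factors had 2 of 12 genes called higher and 0 lower, with a median of 0.29. Taf1a, a subunit of the factor that selects the ribosomal RNA promoter, read 7.91 and 8.24 on the stimulated arrays, against 6.19 and 6.14 on the control arrays, a difference of 1.90 ± 0.15. Taf1c of the same factor rose by 0.62 ± 0.12, and the largest polymerase subunit Polr1a differed by 0.59 ± 0.16 without a call. Exosome subunits and ribosomal RNA nucleases had 0 of 16 genes called by limma, with 3 at an unadjusted p under 0.05, against 25.6% of all genes tested, and a median of 0.10. Exosc2, Rexo4 and Dis3 differed by 0.44, 0.31 and 0.52. The export list had 0 of 10 called, with 2 at an unadjusted p under 0.05 (again against 25.6%) and a median of 0.20, and Rcc1, Ranbp2 and Nxt1 differed by 0.58, 0.51 and 0.31. Over these 6 lists, 30 of 137 genes were called higher and 0 lower. The 30 became 1 without stimulated 1, 4 without stimulated 2 and 0 without control 1 or control 2. Genes of the large subunit's own ribosomal proteins, of which 22 of 46 listed were tested, had a median of 0.09. Of these 22 only Rpl12 was called, which is 4.5%, near the 3.91% of all genes tested that were called higher. Rpl12 read 7.89 and 7.27 on the stimulated arrays, against 6.33 and 5.90 on the control arrays, a difference of 1.47 ± 0.25. Rpl10a and Rpl37a differed by 0.26 and -0.23.

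**Figure D4:**
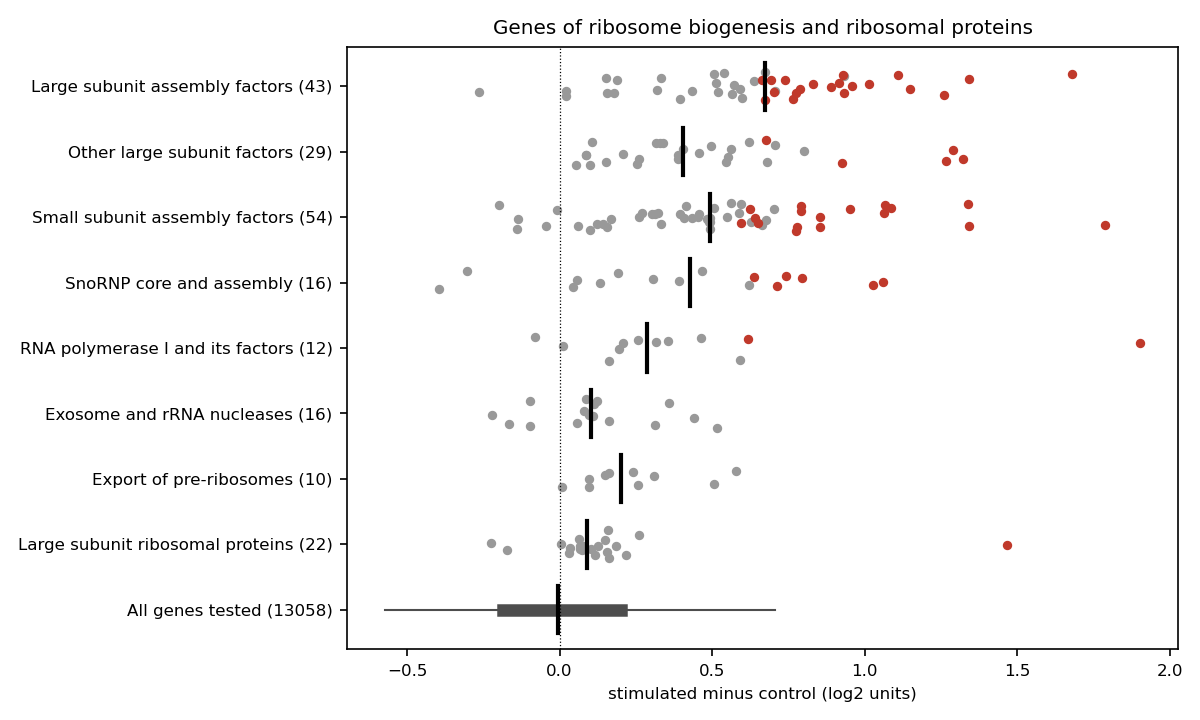
Difference between stimulated and control arrays, in log2 units, for each tested gene of 8 groups, with the number of genes in brackets, where each point is a gene, red where called, black bars are medians, and for all genes tested the thick bar spans the middle 50% and the thin line the middle 90%. The medians run between 0.67 for the large subunit assembly factors and 0.09 for the large subunit ribosomal proteins.

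Of the MYC network, MYC with its partners, antagonists and related regulators, 0 of 12 genes were called by limma. Of all genes tested, 3.91% were called higher and 1.62% lower. An unadjusted p under 0.05, found for 25.6% of all genes tested, was found for 5 of them, of which Myc, Mlxip and Zbtb17 were higher and Mxd4 and Mxd3 lower. Myc read 7.12 and 6.38 on the stimulated arrays, against 5.40 and 5.94 on the control arrays. Its groups did not overlap, and its difference of 1.08 ± 0.29 had an adjusted p of 0.0838. Mxd4 and Mxd3, which compete with MYC for MAX, differed by -0.95 ± 0.20 and -0.74 ± 0.18, and Mlxip by 0.60 ± 0.14. The part of these genes in the levels of the assembly factors was not tested. In the list of nucleolar stress and p53 genes, 1 of 6 tested genes was called lower and 0 higher, against the same 1.62% and 3.91%. The called gene, Cdkn2a, fell by 0.83 ± 0.15, while Cdkn1a and Bbc3 differed by 0.94 ± 0.46 and 0.31 ± 0.16.

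All 10 cardiac muscle markers were past the level filter, among them the atrial light chain gene Myl7 at 13.45 and 13.72 on the stimulated arrays, against 13.85 and 13.84 on the control arrays. The summed linear signal of these markers was 53406 and 63139 on the stimulated arrays, against 65676 and 65268 on the control arrays, and 8 of the 10 had both stimulated arrays below both controls, as did 27.7% of all genes tested. Nppa, which encodes atrial natriuretic peptide, read 12.84 and 12.81 on the stimulated arrays, against 10.69 and 10.96 on the control arrays, and rose. Gata4, a cardiac transcription factor, fell by 0.74 ± 0.13, and Nkx2-5 differed by -0.48 ± 0.14 without a call. Of the leukocyte markers 4 of 6 were past the filter, and their summed signal was 367 and 431 on the stimulated arrays, against 208 and 318 on the control arrays. Cd68, which also marks lysosomes, read 6.34 and 6.59 on the stimulated arrays, against 4.07 and 4.70 on the control arrays, and rose by 2.08 ± 0.23. Its control mean of 4.386 lay just below the filter level of 4.389, so Cd68 was tested only because of its stimulated arrays. Csf1r and Cd3e differed by 0.89 ± 0.44 and 0.07 ± 0.12 without a call. The leukocyte sum was higher on both stimulated arrays and the cardiac sum lower on both, but the leukocyte markers did not move together. Lyz2 read 5.13 and 5.12 on the stimulated arrays, against 5.21 and 5.18 on the control arrays, and was not called. Csf1r read 7.17 and 7.59 on the stimulated arrays, against 5.79 and 7.19 on the control arrays, so its groups overlapped. Itgam lay below the filter level on all arrays. Ptprc, which defines leukocytes, stood at 3.23 and 3.19 on the stimulated arrays, against 3.04 and 3.51 on the control arrays, all below the filter level. Fibroblast markers (5 of 8 past the filter) summed to 181 and 278 on the stimulated arrays, against 190 and 339 on the control arrays. Endothelial markers (1 of 6 past the filter) summed to 121 and 112 on the stimulated arrays, against 135 and 120 on the control arrays. The fibroblast and endothelial sums overlapped between the groups, and Tcf21, Dcn and Pdgfra, the fibroblast markers with the smallest p, differed by -0.28, -0.17 and -0.15, and the endothelial Kdr by -0.29, without a call. Of the other fibroblast markers past the filter, Postn differed by 0.08 without a call. Col1a1, also not called, read 5.49 and 7.14 on the stimulated arrays, against 5.51 and 7.55 on the control arrays, and so was spread within both groups. The part of these marker levels in the results above was not tested.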

How the data were processed

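Total RNA of 4 HL-1 samples was hybridised to Affymetrix arrays, and the deposited values of 45101 probe sets are log2 expression values made with RMA, per the submitters' processing notes. Its version and settings are not given in the sources used here. Gene symbols came from the platform annotation (34945 probe sets with 1 symbol, 932 with several, 9160 with none, besides 64 controls), checked against RefSeq identifiers of GRCm38.p6, and 0 symbols changed.

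Differences were fitted on all 4 arrays with limma 3.58.1 (functions lmFit and eBayes, R 4.3.3). Tests were two-sided, and p-values were adjusted by the Benjamini-Hochberg method over 13058 genes. The fit was also run on simulated arrays with independent normal noise of the variances that limma had fitted. Such a run checks the code and cannot show how shared cultures or technical replicates affect the calls. With 2 arrays a group, exact permutation allows no p under 0.333, and it was not used. The number of arrays limits the precision. The members and gene lists were chosen with earlier results of these data known. All members are named. Values on every array were given for the 16 largest and 4 smallest differences, for genes whose probe sets differed by over 0.5 and for some paralogs and nucleolar proteins, and 3 genes per other list by smallest p. Promoters were those of RefSeq, searched for both motifs by exact match. Protein sequences were not used here. Alternatives changed the probe set summary, level filter, centring, variance trend, replicate block and arrays used.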

Additional observations from a re-analysis of the deposited data

How the results depend on the processing

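Under every alternative fitted per gene, 40 to 42 of the 43 assembly factors were above 0. The number called higher, 20, was 15 with the mean of all probe sets. Leaving out 1 array, where the lone array of its group is taken to vary like the other group, left 0 to 2 called and a median of 0.65 to 0.74. The median was 0.54 with the mean of all probe sets and 0.55 over all probe sets. For the 6 other biogenesis lists, 0 to 4 genes were called with 1 array left out, and the median, 0.39, was 0.36 to 0.44 in those fits, 0.32 with the mean of all probe sets or over all probe sets, and 0.33 with the arrays centred on the genes tested, a setting chosen after seeing the data. Over all genes, the calls with 1 array left out were 19 to 72 higher and 0 to 41 lower. The lower calls, 212 of 13058 genes (1.62%), were 433 of 23284 single probe sets (1.86%). They were 319 of 9796 genes with the 60th percentile filter and 381 of 13058 with arrays centred on the genes tested.

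The replicate block called 25 assembly factors higher, the same 20 with Brix1, Ddx18, Ftsj3, Rrp1b and Rrs1, and 856 genes higher and 489 lower of all 13058. The control numbers follow the order of deposit. The protocol of the second control speaks of an experimental sample 2, but no label says that a number marks a shared culture or day. Deviations of same-numbered samples from the group means correlated at 0.33 across genes, over 2 pairs. Whether same-numbered samples share a culture or day was not tested, and the main fit did not pair them.

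Genes near 0 changed sign. Nsa2 was -0.043 with arrays centred on the genes tested and as low as -0.16 with 1 array left out, up to 0.20. Gnl3l was -0.041 with that centring and -0.12 to 0.17 with 1 array left out. Wdr18 was -0.021 with the mean of all probe sets. The median of the MYC network, 0.20, was -0.12 over all probe sets and -0.0086 to 0.27 with 1 array left out. The causes were not tested.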
